A study of Mus musculus with 3 samples.

Results

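Top2a, Top2b and Top1 encode the mouse DNA topoisomerases IIα, IIβ and I, and the open chromatin listed around these 3 genes in embryonic stem cells was examined. Members were found by position, as the intervals of a FAIRE-seq peak list whose midpoint fell in a window around each gene on the mm9 build. The windows were chr11:98750001-98990000 for Top2a (240 kb), chr14:17090001-17370000 for Top2b (280 kb) and chr2:160370001-160650000 for Top1 (280 kb). They held 207 of the 348759 intervals of the list, with 153 in the Top2a window, 15 in the Top2b window and 39 in the Top1 window. FAIRE (formaldehyde-assisted isolation of regulatory elements) enriches DNA that carries little crosslinked protein, such as promoters and enhancers free of nucleosomes.

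All cells were wild type embryonic stem cells of a 129Sv-C57Bl/6 strain, and the treated cultures had no feeder cells. The series has 3 samples: genomic input, FAIRE on cells given DMSO, and FAIRE on cells given ICRF-193 at 500 nM, with 16 h of exposure to either agent. Both FAIRE titles name replicates 1 and 2 together, so a group is 1 sample. The deposited list names no sample for an interval or a score, so DMSO and ICRF-193 cells cannot be told apart in any value given here. The read depth is unknown. Each score is the authors' own value for its interval, has no stated scale, and was used to rank and describe intervals within the list.

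Topoisomerases relieve the twisting and tangling that replication and transcription put into DNA. Topoisomerase I cuts a single strand and lets the helix swivel, whereas the type II enzymes pass a duplex through a break in another duplex. Top2a is tied to proliferation and separates sister chromatids at mitosis, and Top2b is also present in cells that have left the cell cycle. ICRF-193 blocks the catalytic cycle of type II enzymes, and the study asks what that activity of Top2a does for transcription.

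The sequences before the starts of the 3 genes are shown because they form part of the promoters of these loci and differ in the sites they hold. The 250 bases before each gene start were taken from RefSeq on GRCm38.p6, at chr11:99024190-99024439 on the minus strand for Top2a, chr14:16364956-16365205 on the plus strand for Top2b and chr2:160645647-160645896 on the plus strand for Top1. These positions belong to another build than the windows and are not comparable with mm9 positions. All 3 genes were matched by symbol. Each sequence is written 5′ to 3′ along its gene, with CCAAT boxes (CCAAT, or ATTGG on the other strand) and GC boxes (GGGCGG, or CCGCCC on the other strand) in capitals.
Top2a: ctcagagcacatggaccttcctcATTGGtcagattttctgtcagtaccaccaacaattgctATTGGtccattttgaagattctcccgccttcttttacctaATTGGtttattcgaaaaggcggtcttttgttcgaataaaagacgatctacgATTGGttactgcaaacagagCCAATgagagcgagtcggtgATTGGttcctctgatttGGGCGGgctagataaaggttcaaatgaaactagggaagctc
Top2b: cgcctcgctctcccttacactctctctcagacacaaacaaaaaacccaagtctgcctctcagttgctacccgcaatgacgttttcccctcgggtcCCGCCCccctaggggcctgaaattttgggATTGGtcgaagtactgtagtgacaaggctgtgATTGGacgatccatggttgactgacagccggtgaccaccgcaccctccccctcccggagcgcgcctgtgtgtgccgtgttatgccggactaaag
Top1: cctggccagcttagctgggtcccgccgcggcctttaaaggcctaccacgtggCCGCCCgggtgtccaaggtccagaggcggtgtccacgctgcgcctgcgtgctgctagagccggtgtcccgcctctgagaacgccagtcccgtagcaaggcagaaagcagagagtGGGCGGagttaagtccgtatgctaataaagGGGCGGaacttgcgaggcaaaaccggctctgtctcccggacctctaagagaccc

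The Top2a sequence held 6 CCAAT boxes, the Top2b sequence held 2, and CCAAT was not found in the Top1 sequence. CCAAT is the site read by the factor NF-Y, which acts at many promoters of cell cycle genes. Among 32841 RefSeq sequences of the same length, from 27018 genes, 33.9% held at least 1 CCAAT box, 10.1% held at least 2, and 19 sequences (0.0579%) held 6 or more, that of Top2a included. The boxes of Top2a were spread over the sequence, the farthest from the start ending 223 bases before it and the nearest ending 54 bases before it. GC boxes, which Sp family factors bind, ran the other way, with 3 in the Top1 sequence and 1 each in those of Top2a and Top2b. At least 1 GC box was held by 32.7% of all sequences and at least 3 by 8.47%.

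Base composition also separated the 3 genes. The Top1 sequence was 63.6% G or C with 20 CpG dinucleotides, the Top2b sequence 57.6% with 15, and the Top2a sequence 43.6% with 9. The medians of all sequences were 52.4% and 6, so Top2a lay below the median in GC content and above it in CpG number, and Top2b and Top1 lay above both. TTTGAA, the cell cycle genes homology region, occurred 2 times in the Top2a sequence, counting both strands, and was not found in those of Top2b and Top1. At least 1 TTTGAA was held by 16.0% of all sequences and at least 2 by 1.81%. The E-box CACGTG occurred 1 time, in the Top1 sequence, and in 6.02% of all sequences. TATAAA (12.4% of all sequences) and TGACGTCA (1.55%) were not found in the 3 sequences, none of the sites counted overlapped another, and a match is a description of letters and not a bound site.

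The Top2a window was densely filled with open chromatin. Its 153 intervals came to 638 per Mb (95% exact Poisson confidence interval 540 to 747, counting error only) and covered 17905 bp, or 7.46% of the window. The median of 10051 other autosomal windows of 240 kb was 17 intervals and 1758 bp, so the Top2a window held 9 times as many intervals and 10.2 times as many covered bases. It had more intervals than 97.3% of those windows and more covered bases than 97.2%. The number of intervals depends on how open regions are split. After merging intervals at most 500 bp apart, the window held 63 regions against a median of 10. That was 6.3 times the median and above 98.2% of windows. Within chromosome 11, whose median window held 31 intervals, it was 4.94 times that median and above 94.3% of 493 windows. The list holds no replicates, so these ranks describe this list and carry no test.

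The Top1 window lay somewhat above the typical autosomal window and the Top2b window near it. In the Top1 window 39 intervals, 139 per Mb (99.0 to 190), covered 4647 bp, or 1.66% of the window. The median of 8613 other windows of 280 kb was 20 intervals, which made the Top1 window 1.95 times the median in intervals and 2.20 times in covered bases, above 66.2% and 69.1% of windows. In the Top2b window 15 intervals, 53.6 per Mb (30.0 to 88.4), covered 2635 bp, or 0.941%. That was 0.75 times the median number of intervals and 1.25 times the median covered bases, above 43.3% and 55.0% of windows. The side of the median on which the Top2b count fell depended on which intervals were counted, since its 6 intervals of at least 200 bp were 1.5 times their median of 4.

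**Figure D1:**
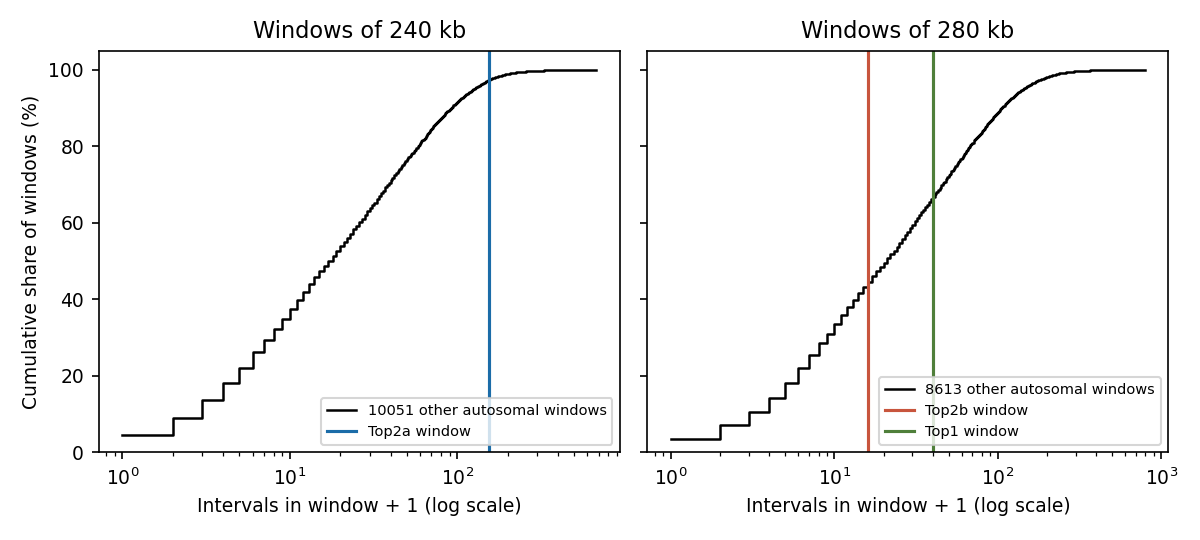
Cumulative share of other non-overlapping autosomal windows (vertical axis, %) by the number of listed intervals in a window plus 1 (horizontal axis, log scale), for windows of 240 kb (left) and 280 kb (right). Coloured lines mark the Top2a window (153 intervals, above 97.3% of windows), the Top2b window (15, above 43.3%) and the Top1 window (39, above 66.2%).

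The order Top2a, Top1, Top2b held for intervals per Mb, with confidence intervals for counting error that did not reach 1. The Top2a window had 4.58 times the density of the Top1 window (95% exact confidence interval 3.20 to 6.68) and 11.9 times that of the Top2b window (6.99 to 21.8). The Top1 window had 2.60 times the density of the Top2b window (1.40 to 5.08). These ranges make no allowance for the clustering of intervals along chromosomes. Among wide intervals the Top1 window had 1.5 times the density of the Top2b window (0.477 to 5.12), a range that includes 1, so at this count the Top1 and Top2b windows could not be separated in wide open chromatin. The same held for high-score intervals, at 1.75 times (0.445 to 8.15). Wide intervals were still 4.02 times denser in the Top2a window than in the Top1 window (1.87 to 9.60) and 6.03 times denser than in the Top2b window (2.48 to 17.7).

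Most listed intervals were narrow and scored near the lowest value of the list, 0.0129, so 2 classes were followed separately: high-score intervals (the top 10.0% of the list, scores of at least 0.0237) and wide intervals (at least 200 bp, 20.1% of the list). High-score intervals numbered 19 of 153 in the Top2a window (12.4%, 95% exact binomial confidence interval 7.64 to 18.7), 7 of 39 in the Top1 window (17.9%, 7.54 to 33.5) and 4 of 15 in the Top2b window (26.7%, 7.79 to 55.1). Each of these ranges includes the 10.0% of the whole list, so no window was shown to be richer in high-score intervals than the list. Wide intervals numbered 31 in the Top2a window (20.3%, 14.2 to 27.5), 9 in the Top1 window (23.1%, 11.1 to 39.3) and 6 in the Top2b window (40.0%, 16.3 to 67.7), and these ranges include 20.1%. The ranges for both classes treat intervals as independent and make no allowance for their clustering along chromosomes. For Top2a, whose 153 intervals give the narrowest ranges, both shares lay close to those of the list.

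Set against windows with a similar number of intervals (within 20% of the gene's own count), the Top2b window ranked higher than it did overall. Its covered bases exceeded 93.4% of 893 windows with 12 to 18 intervals, and its 4 high-score intervals exceeded the number in 89.6% of them, where the median was 1. In the Top2b window the 6 wide intervals made up 89.8% of the covered bases, against 63.6% in the Top2a window, 63.2% in the Top1 window and 66.8% in the whole list. The Top1 window had more high-score intervals than 86.9% of 818 windows with 32 to 46 intervals. The Top2a window had more than 82.1% of 390 windows with 123 to 183 intervals, where the median was 12.5 against its 19. In covered bases these 2 windows ranked lower than that of Top2b, above 69.9% of such windows for Top1 and 67.7% for Top2a.

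**Figure D2:**
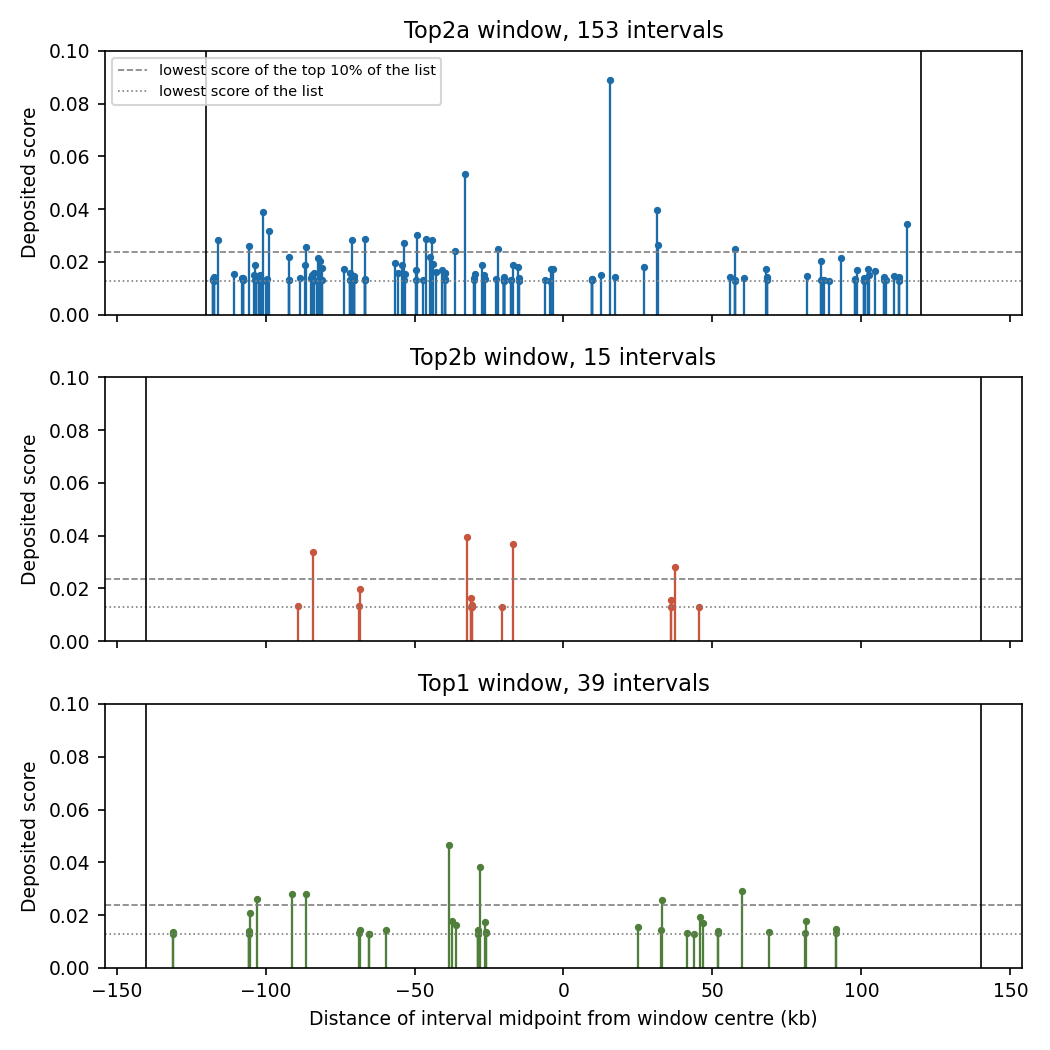
Deposited score (vertical axis, no unit) of each listed interval by the distance of its midpoint from the window centre (horizontal axis, kb), for Top2a, Top2b and Top1; black vertical lines are the window ends, the dashed line the lowest score of the top 10.0% and the dotted line the lowest score of the list. The Top2a window is filled on its left side and has the highest interval, 0.0889, and the Top2b window has 15 intervals with none beyond 45.3 kb right of the centre.

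A single strong interval stood out in the Top2a window. It lay at chr11:98885377-98885893 (517 bp) with a score of 0.0889, which was 6.51 times the median score of the list. It ranked 372nd of 348759 intervals and 17th of 25497 on chromosome 11. The next score in the window was 0.0535, so the first exceeded the second 1.66 times. The nearest higher-scoring interval was 2046 kb away on the left and 9988 kb away on the right. The window's highest score was above the highest score of 97.5% of autosomal windows, and above 97.2% of the 390 windows with a similar number of intervals.

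The strongest interval of the Top1 window was at chr2:160471317-160471849 (533 bp) with a score of 0.0467, 3.42 times the list's median. It ranked 3153rd in the list and 201st of 25121 on chromosome 2, and its nearest higher-scoring neighbours were 3048 kb to the left and 2285 kb to the right. A second interval of the Top1 window followed 10.5 kb to the right, at chr2:160481732-160482353 (622 bp, score 0.0380). The strongest interval of the Top2b window was at chr14:17197398-17197768 (371 bp) with a score of 0.0397, 2.90 times the list's median and 6447th in the list. A second one, at chr14:17212728-17213069 (342 bp), scored 0.0367, so the first exceeded it only 1.08 times. The highest score was above that of 79.2% of autosomal windows for Top1 and 66.6% for Top2b.

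For Top2a and Top1 the strongest interval lay far from any that scored higher. The distance to the nearest higher-scoring interval, 2046 kb for Top2a, was longer than for the strongest interval of 93.9% of non-empty windows of its length, whose median was 236 kb. For Top1 the distance of 2285 kb was longer than in 93.7% of windows, with a median of 272 kb. For Top2b the distance of 568 kb was longer than in 76.6%. A higher score leaves fewer intervals above it, and the windows were not matched on score. These distances are therefore not a trait separate from the scores.

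The strongest interval was 15.6 kb to the right of the window centre for Top2a, and 32.4 kb and 38.4 kb to the left for Top2b and Top1. An annotation of mm9 was not used here, so the position of the gene starts within the windows was not read and no interval was assigned to a promoter or to one gene rather than a neighbour.

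Scores were also set against width, since wide intervals score higher throughout the list. Among 5523 autosomal intervals within 10% of its width, the strongest interval of the Top2a window scored above 98.5%, whose median was 0.0296. The strongest interval of the Top2b window scored above 89.9% of 10642 like-sized intervals and that of the Top1 window above 87.2% of 5268. Another leading interval of the Top2a window, at chr11:98985295-98985528, was only 234 bp wide but scored 0.0343, above 99.6% of 16823 like-sized intervals. By contrast the widest interval of the Top2a window, chr11:98763966-98764923 (958 bp, score 0.0259), scored above only 16.4% of 1021 like-sized intervals. The widest of the Top2b window, chr14:17266938-17267731 (794 bp, score 0.0280), scored above 27.6% of 1883. The widest of the Top1 window, chr2:160481732-160482353 (622 bp, score 0.0380), scored above 68.2% of 3614.

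**Figure D3:**
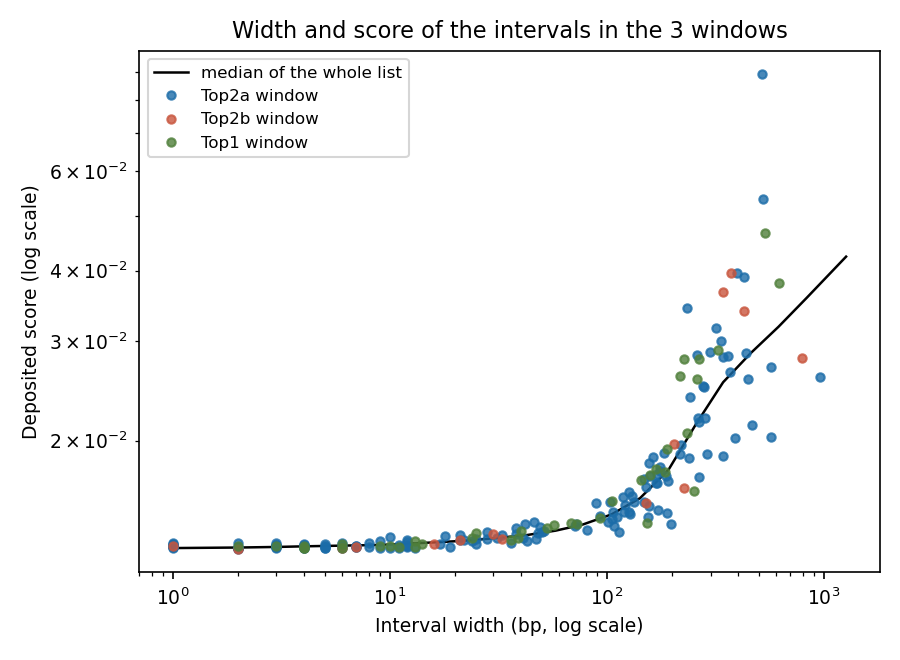
Deposited score (vertical axis, log scale) against interval width (horizontal axis, bp, log scale) for each interval of the Top2a, Top2b and Top1 windows, with the median of the whole list as a black line. The strongest intervals of the 3 genes lie above the line, and the widest of Top2a (958 bp) and of Top2b (794 bp) lie below it, while the widest of Top1 (622 bp) lies above it.

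The remaining leading intervals of the Top2a window were spread over it. The next 3 by score were chr11:98836553-98837073 (score 0.0535), chr11:98901081-98901478 (0.0397) and chr11:98768788-98769213 (0.0390), at 33.2 kb left, 31.3 kb right and 101 kb left of the centre by their midpoints. The interval at 98901081 equals the strongest interval of the Top2b window to 3 digits. In the Top2b window the 3 after the second were chr14:17145625-17146054 (0.0340), chr14:17266938-17267731 (0.0280) and chr14:17161723-17161926 (0.0197), and the last of these was below the high-score threshold. In the Top1 window these 3 were chr2:160569801-160570125 (0.0290), chr2:160418843-160419068 (0.0279) and chr2:160423609-160423874 (0.0279), all of them high-score intervals.

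Open chromatin was uneven within each window and, in this list, heavier on the left of the centre. Left means lower coordinates, whatever the strand of the gene, and the centre is that of the window. The counts for Top2b and Top1 are small, and the split in other windows was not examined. The left side held 107 of 153 intervals and 14 of 19 high-score intervals in the Top2a window, 11 of 15 and 3 of 4 in the Top2b window, and 24 of 39 and 5 of 7 in the Top1 window. In bins of 20 kb, coverage in the Top2a window was highest at chr11:98810001-98830000 (16.3%, 16 intervals), chr11:98750001-98770000 (15.4%, 25 intervals) and chr11:98770001-98790000 (14.0%, 22 intervals). The bin with the strongest Top2a interval held 7 intervals and was covered to 4.15%, so the highest score and the densest open chromatin of that window lay in different places. In the Top1 window the strongest interval lay in the most covered bin, chr2:160470001-160490000, which had 10 intervals and 9.23% coverage. In the Top2b window the most covered bin was chr14:17250001-17270000 (4.74%, 3 intervals), and the bin with the strongest interval followed at 3.26% with 6 intervals. The strongest interval lay in the most covered bin in 30.5% of windows with about as many intervals as that of Top2a, 60.5% for Top2b and 43.9% for Top1.

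**Figure D4:**
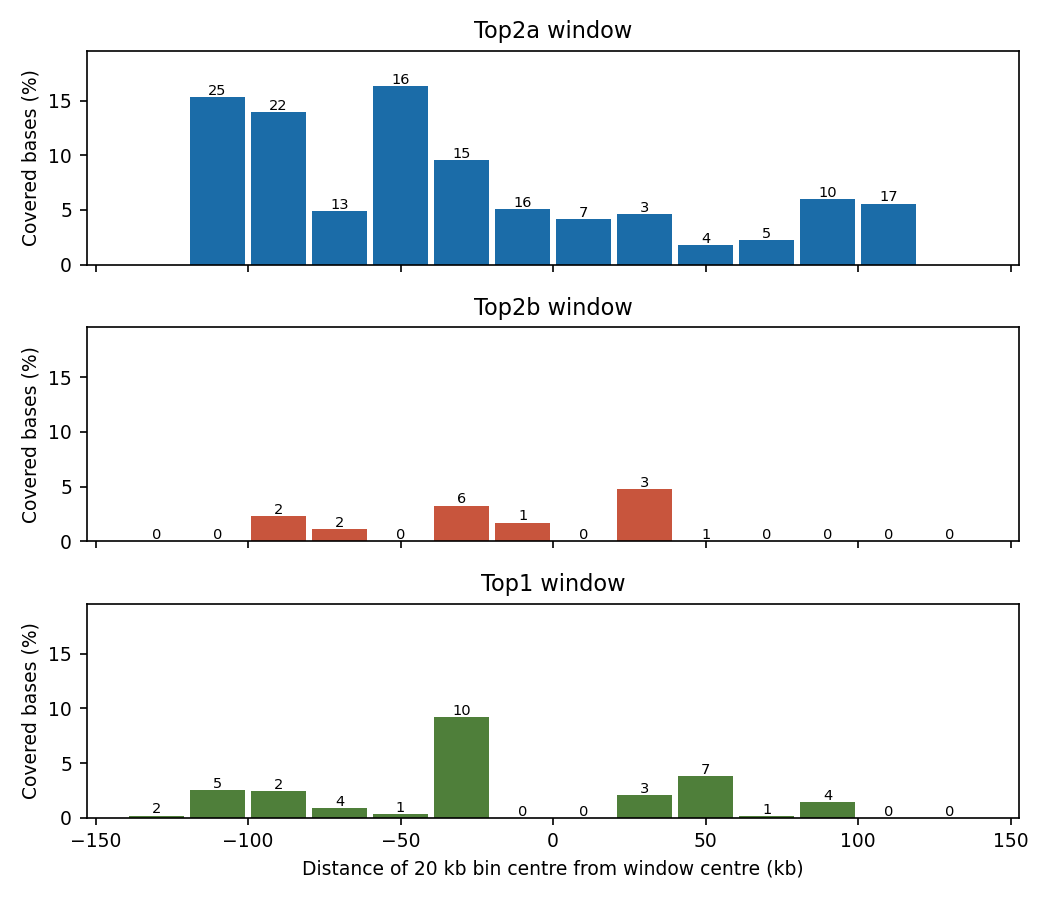
Share of bases covered by listed intervals (vertical axis, %) in bins of 20 kb across the Top2a, Top2b and Top1 windows, by the distance of the bin centre from the window centre (horizontal axis, kb); the number over each bar counts the intervals. Coverage in the Top2a window reaches 16.3% on the left side, whereas the tallest bars are 9.23% for Top1 and 4.74% for Top2b.

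When intervals at most 500 bp apart were merged, 63 regions remained in the Top2a window, 24 in the Top1 window and 10 in the Top2b window. A region held 2.43 intervals on average in the Top2a window, 1.62 in the Top1 window and 1.5 in the Top2b window, against 2.17 in the whole list. The region with most covered bases in the Top2a window was chr11:98787215-98789169, where 7 intervals covered 1050 of 1955 bp with a highest score of only 0.0213. In the Top1 window it was chr2:160481240-160482353, with 4 intervals and 703 covered bases. In the Top2b window it was the single interval chr14:17266938-17267731. The strongest interval had 2 others within 5 kb in the Top2a window, 4 in the Top2b window and 2 in the Top1 window. The bin of 20 kb with the strongest interval was also the one with most intervals for Top2b, 6 of the 15, and for Top1, 10 of the 39. For Top2a it was not.

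Stretches without a listed interval were shorter in the Top2a window than in the others. The longest in the Top2a window was 23.8 kb, at chr11:98901928-98925755. In the Top2b window the longest ran from chr14:17275346 past the right end of the window, 132 kb in all. Another of 64.4 kb reached across its left end, and one of 53.0 kb lay inside at chr14:17213070-17266051, directly after the second strongest interval. In the Top1 window the longest, 97.3 kb, ran from chr2:160601435 past the right end, and one of 50.8 kb lay inside at chr2:160484113-160534912. These lengths follow the number of intervals. Among windows with a similar number, the longest stretch was shorter than that of the gene in 44.4% for Top2a (median 25.0 kb), 54.9% for Top2b (median 123 kb) and 74.3% for Top1 (median 68.6 kb). Because the read depth and the alignability of these stretches are unknown, a missing interval does not show closed chromatin.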

How the data were processed

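FAIRE-seq and input libraries came from mouse embryonic stem cells given DMSO or ICRF-193. Per the submitters' processing notes, reads were aligned with Bowtie to mm9. The deposited list carries the name of F-Seq, a density-based peak caller; the Bowtie version, the F-Seq settings, the read filters, any use of the input and the samples that entered were not given in the sources used here. Its only measurement is the authors' score, 1 per interval, of unstated scale. Interval starts count from 0 in the list and from 1 in the text.

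Members and motif lists were chosen with earlier results of these data known. With scipy 1.17.1, numpy 2.4.6 and pandas 2.3.3 under Python 3.11.15, intervals were put in windows by midpoint. Reference windows of equal length were laid end to end between the first and last interval of each of 19 autosomes, leaving out those that overlap the gene's own window. Percentiles are the share of reference windows with a lower value. In each window the 5 highest-scoring and 3 widest intervals, 3 longest gaps, 3 most covered bins of 20 kb and 3 regions with most covered bases were eligible to be named. Figures were drawn with matplotlib 3.10.9. The window procedure was tested on simulated intervals of equal width, placed at random without clustering, for the fold in interval number only. Covered bases and highest scores were not tested in this way. Distances to higher-scoring intervals, comparisons at similar interval number (gap lengths included) or width, and adjoining windows were added after the data were seen. DMSO and ICRF-193 were not compared, since the list names no sample, and intervals at gene starts and other topoisomerase genes were not analysed for want of an mm9 annotation.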

Additional observations from a re-analysis of the deposited data

How the results depend on the processing

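Of 108 alternative values for 12 results, 85 stayed within 1.5 times of the reported value or, for percentiles, within its 95% exact binomial confidence interval, 19 moved further and 4 changed side. Some of the 85 were fixed in advance. A filter on score could not change the percentile of a highest score, and joining, which keeps the highest score of a region, could hardly change it. All 4 concern the number of Top2b intervals over the median window, 0.75 as reported: it was 2 in the top 10% by score, 1.5 at a width of at least 200 bp, 1.03 against windows of chromosome 14 and 1.44 in the central 50% of the window. In the top 10% by score, covered bases over the median were 3.39 for Top1 and 2.68 for Top2b, and the number of intervals was 3.5 for Top1. Against windows of the same chromosome, Top2a was 4.94 times the median in intervals and 5.07 in covered bases, and its highest score stood at the 98.2nd percentile, with that of Top2b at the 70.0th. In the central 50%, covered bases were 3.61 for Top1 and 2.37 for Top2b, and the highest scores stood at percentiles 98.7 for Top2a, 87.7 for Top1 and 78.8 for Top2b. Without empty windows the Top2b percentile was 65.4. The density ratio of Top2a over Top2b was 5.54 in the top 10%, 6.03 at 200 bp or wider, 7.35 after joining within 500 bp and 5.47 in the central 50%. Top2a over Top1 was 2.74 in the central 50%, and Top1 over Top2b was 1.5 at 200 bp or wider. The cause of these moves was not tested. The order of the 3 windows in intervals per Mb was the same under each setting that changed the intervals counted or the part of the window. For wide and for top 10% intervals, however, the range of Top1 over Top2b includes 1. Counting intervals by any overlap with the window left the density ratios unchanged. Settings that change only the reference windows cannot alter this order and were no check on it. Shifting the reference windows by 50% of their length was chosen after seeing the data and moved no value past these limits. No paired analysis was possible because each group is 1 sample and the list does not separate the groups. Alternatives for DMSO against ICRF-193 and for intervals at gene starts were not run.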

Other observations

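The windows adjoining that of each gene differed in how full they were. The adjoining window of 240 kb to the left of the Top2a window, chr11:98510001-98750000, was about as full, with 143 intervals, 7.60% coverage, 21 high-score intervals and a highest score of 0.0720. To the right the number fell from 153 in the Top2a window to 44, 17 and 1 in the next 3 windows, with coverage of 2.02%, 1.01% and 0.0317%. Farther to the left the next 2 windows held 49 and 69 intervals, with 2.54% and 3.69% coverage, so the number was lower on both sides of this pair of full windows. The Top2b window, with 15 intervals, stood among sparse windows of 2 to 22 intervals on the left and 1 to 10 on the right, and none of these 6 was covered as much as its 0.941%, the highest being 0.594%. The Top1 window, with 39 intervals, had 42 on either side, and the second window to its right was covered more (2.36% against 1.66%).

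Protein-coding neighbours in RefSeq on GRCm38.p6 were read for Top2a and Top2b only, in order of coordinates and without regard to strand. Rara was among the nearest 3 at lower coordinates than Top2a, and Rarb was the next at higher coordinates than Top2b. Both encode retinoic acid receptors. The neighbours of Top1 were not read, and how often other genes have such a neighbour was not counted. Which intervals belong to Rara or Rarb was not read.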
